A study of Saccharomyces cerevisiae with 6 samples.

Results

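The zinc transporters of budding yeast and their activator were followed as a set of 10 genes on 6 oligonucleotide arrays from 3 strains. The genes were taken by symbol: ZRT1 (YGL255W), ZRT2 (YLR130C) and FET4 (YMR319C) for uptake, ZRC1 (YMR243C), COT1 (YOR316C) and ZRT3 (YKL175W) for the vacuole, ZRG17 (YNR039C), MSC2 (YDR205W) and YKE4 (YIL023C) for the secretory pathway, and ZAP1 (YJL056C), the transcriptional activator. Each had 1 probe set, and all 10 of the 5449 genes measured passed the filter on dim genes, which kept 4915. The strains were the eos1 deletion and the izh2 deletion, both made in BY4741, and BY4741 itself as the wild type, with 2 arrays each. BY4741 is a haploid laboratory strain of mating type a, so that all strains share its loss of HIS3, LEU2, MET17 and URA3 function. Eos1 resides in the membrane of the endoplasmic reticulum and has been tied to N-glycosylation, Izh2 is a membrane protein tied to zinc metabolism, and the series is titled for the place of Eos1 in zinc homeostasis. Cells were grown in YPD, a rich medium, at 30 degrees Celsius to an optical density of 1.0. The labels name 2 independent experiments per strain and do not say whether a strain's arrays came from separate clones.

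Zinc is a cofactor of many yeast proteins and is toxic in excess, so its entry and storage are tightly controlled. When cells run short of zinc, Zap1 activates genes that bring zinc in through the plasma membrane or release it from the vacuole, and Zap1 also activates its own gene. ZRT1, ZRT2, FET4, ZRT3, ZRC1, ZRG17 and ZAP1 are known Zap1 targets, and ZRT2 is known to be repressed by Zap1 under severe shortage. Zrc1 and Cot1 carry zinc into the vacuole when it is plentiful, and Msc2 and Zrg17 form a complex that supplies zinc to the endoplasmic reticulum.

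The deleted genes followed their labels: EOS1 was at least 51.6-fold lower in the eos1 deletion and IZH2 at least 284-fold lower in the izh2 deletion than in the wild type, with a dim gene set at the array's background. The median log2 fold change of the 4915 tested genes against the wild type was itself 0.21 for the eos1 deletion and -0.11 for the izh2 deletion. The shift of the eos1 deletion was uneven between its arrays, whose median log2 signals were 9.62 and 9.36, against 9.32 and 9.20 in the wild type. It was 0.085 without the first eos1 deletion array and 0.33 without the second. The first array also had the highest background, a signal of 15.2. Values are given both on the deposited signals and after median centring, in which the median of each array's tested genes is subtracted. The median log2 fold change of the eos1 deletion against the wild type was 1.03 over the 353 tested genes of chromosome II, and 0 of the 10 zinc genes lie on that chromosome. All 6 markers of mating type a fell in the eos1 deletion against the wild type (limma, adjusted p under 0.05), as did 0.712% of all tested genes. After median centring all 6 passed again, beside 2.24% of all tested genes as falls. Their summed signals were 7198 and 5818 there, against 17480 and 15141 on izh2 deletion arrays and 19319 and 18047 in the wild type. The summed deposited signal of 4 markers of mating type alpha was 629 and 541 in the eos1 deletion, against 331 and 309.7 on izh2 deletion arrays and 356 and 319 in the wild type. Of these 4 SAG1 alone was bright enough to test. SAG1 did not pass against the wild type on the deposited or centred signals (limma, adjusted p = 0.099 and 0.22). Against the izh2 deletion it passed on the deposited signals and not after centring (limma, adjusted p = 0.024 and 0.128). Whether the chromosome II difference and these marker differences bear on the zinc genes was not tested. The arrays measured RNA of whole cultures, in which less RNA per cell and fewer expressing cells cannot be told apart.

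The first question was how loss of EOS1 altered the zinc genes. ZRT1, the high-affinity zinc importer, had signals of 572 and 517 on the eos1 deletion arrays, against 1301 and 919.6 on the wild-type arrays. Both eos1 deletion arrays lay below both wild-type arrays, and they lay close together while the wild-type arrays differed 1.42-fold. The means were 545 ± 39.2 in the eos1 deletion and 1110.4 ± 269.9 in the wild type (SD, n = 2 each). ZRT1 fell 2.01-fold, a log2 fold change of -1.01 (95% interval -1.55 to -0.47; limma, adjusted p = 0.033). It had the 38th lowest log2 fold change of the 4915 genes. On the median-centred scale the log2 fold change of ZRT1 was -1.24 ± 0.19 (SE; limma, adjusted p = 0.0093). The call on deposited signals was lost when the first eos1 deletion array was left out (adjusted p = 0.093), the second (0.103) or the first wild-type array (0.164). It was lost likewise on omission of the first or second izh2 deletion array (0.069 and 0.068), which enter through the shared estimate of the spread. It was also lost, at the same log2 fold change of -1.01, when the chromosome II genes were left out of the fit (adjusted p = 0.080) or the izh2 deletion was (0.067), and it held without the second wild-type array (0.011). After median centring it held in 5 of the 6 omissions of 1 array, and omission of the first eos1 deletion array gave an adjusted p of 0.053. Centring without the chromosome II genes kept the call, at a log2 fold change of -1.18 (adjusted p = 0.021).

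ZRT1 was the 1 of the 10 genes past an adjusted p under 0.05 in this comparison. Over all 4915 genes 7.14% passed, 0.712% as falls, and after median centring 6.49% passed, 2.24% as falls, again with ZRT1 alone among the 10. Of the 351 calls on deposited signals 209 lay on chromosome II, which holds none of the 10, and of the 4562 tested genes elsewhere 142 passed (3.11%). With 10 genes 1 call is the smallest count above 0, so that the count by itself is no result about the set.

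**Figure D1:**
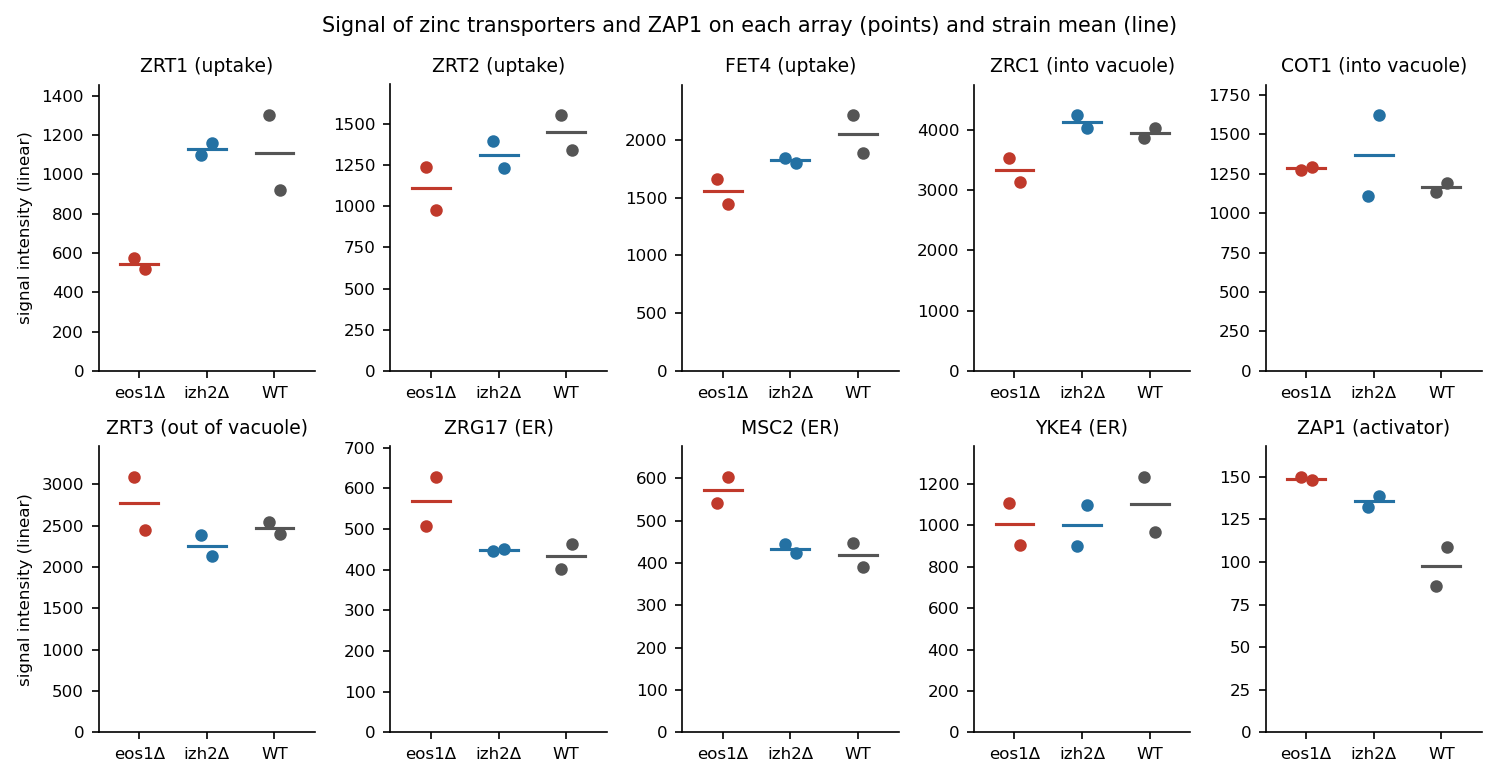
Signal intensity of the 10 genes on each array, 1 panel per gene on a linear axis that starts at 0, with the eos1 deletion (red), the izh2 deletion (blue) and the wild type (grey). Points are arrays and lines are strain means (n = 2). ZRT1 stood at 572 and 517 in the eos1 deletion, below every other array, and ZAP1 was lowest in the wild type, at 85.8 and 109.

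The other genes for uptake at the plasma membrane lay lower as well, by less. ZRT2, the low-affinity zinc importer, had signals of 1239.6 and 977 in the eos1 deletion, against 1551 and 1343 in the wild type. Its log2 fold change was -0.39 (95% interval -0.92 to 0.14; limma, adjusted p = 0.38). FET4, a low-affinity importer of iron that also carries zinc and copper, had signals of 1659 and 1449 in the eos1 deletion, against 2214 and 1890.2 in the wild type, a log2 fold change of -0.40 (95% interval -0.89 to 0.09; limma, adjusted p = 0.33). For ZRT1, ZRT2 and FET4 alike the eos1 deletion arrays lay below the wild-type arrays without overlap, an order that 8.83% of all tested genes showed. After median centring 6 of the 10 genes, these 3 with ZRC1, ZRT3 and YKE4, and 26.9% of all tested genes lay lower without overlap. Centring moved ZRT2 to -0.62 ± 0.17 and FET4 to -0.63 ± 0.16 (log2 fold change, SE), at adjusted p of 0.062 and 0.051 (limma), short of the threshold.

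The vacuolar transporters differed among themselves. ZRC1, which carries zinc into the vacuole, had signals of 3529 and 3143 in the eos1 deletion, against 3874 and 4027 in the wild type. These arrays did not overlap either, and the log2 fold change was -0.25 (95% interval -0.63 to 0.14; limma, adjusted p = 0.44). Its paralogue COT1, which moves zinc and cobalt the same way, had signals of 1273 and 1295 in the eos1 deletion, against 1137 and 1194 in the wild type, a log2 fold change of 0.14 (95% interval -0.41 to 0.69; limma, adjusted p = 0.78). ZRT3, which releases stored zinc from the vacuole, had signals of 3093 and 2445 in the eos1 deletion, with 2542 and 2401 in the wild type. The arrays of ZRT3 overlapped, and its log2 fold change was 0.15 (95% interval -0.32 to 0.62; limma, adjusted p = 0.71). Both COT1 and ZRT3 took the other sign after median centring, with log2 fold changes of -0.09 and -0.08, while ZRC1 moved to -0.48 ± 0.15 (SE; limma, adjusted p = 0.097).

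Of the genes of the endoplasmic reticulum none passed. ZRG17 had signals of 507 and 629 in the eos1 deletion, against 403 and 464 in the wild type. MSC2 had signals of 541 and 604 in the eos1 deletion, against 446 and 390.2 in the wild type. These partners of 1 complex were both higher without overlap, as were 41.9% of all tested genes, with log2 fold changes of 0.39 and 0.45 (limma, adjusted p = 0.33 and 0.23). Against the median of all genes their excess was 0.17 for ZRG17 and 0.24 for MSC2, and after centring the arrays of both overlapped those of the wild type. YKE4, a zinc transporter of the endoplasmic reticulum membrane, had overlapping signals of 1108 and 906 in the eos1 deletion, against 1236 and 967 in the wild type, a log2 fold change of -0.13 (95% interval -0.67 to 0.42; limma, adjusted p = 0.80).

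ZAP1 lay on the other side from ZRT1. Its signals were 149.9 and 148 in the eos1 deletion, against 85.8 and 109 in the wild type. These were the dimmest signals of the set on their arrays, between 7.48 and 16.01 times the background of each array over the 3 strains. The limit of the filter on dim genes was higher than that background, at a signal of 90.5. The 85.8 of the first wild-type array lay below that limit. The log2 fold change of ZAP1 was 0.62 (95% interval 0.03 to 1.22), which passed at an unadjusted p of 0.042 and not after adjustment (limma, adjusted p = 0.21). An unadjusted p under 0.05 with a higher signal was reached by 19.5% of all tested genes. After median centring the log2 fold change of ZAP1 was 0.39 ± 0.26 (SE; limma, adjusted p = 0.43), still higher without overlap, as were 22.9% of all tested genes on that scale.

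**Figure D2:**
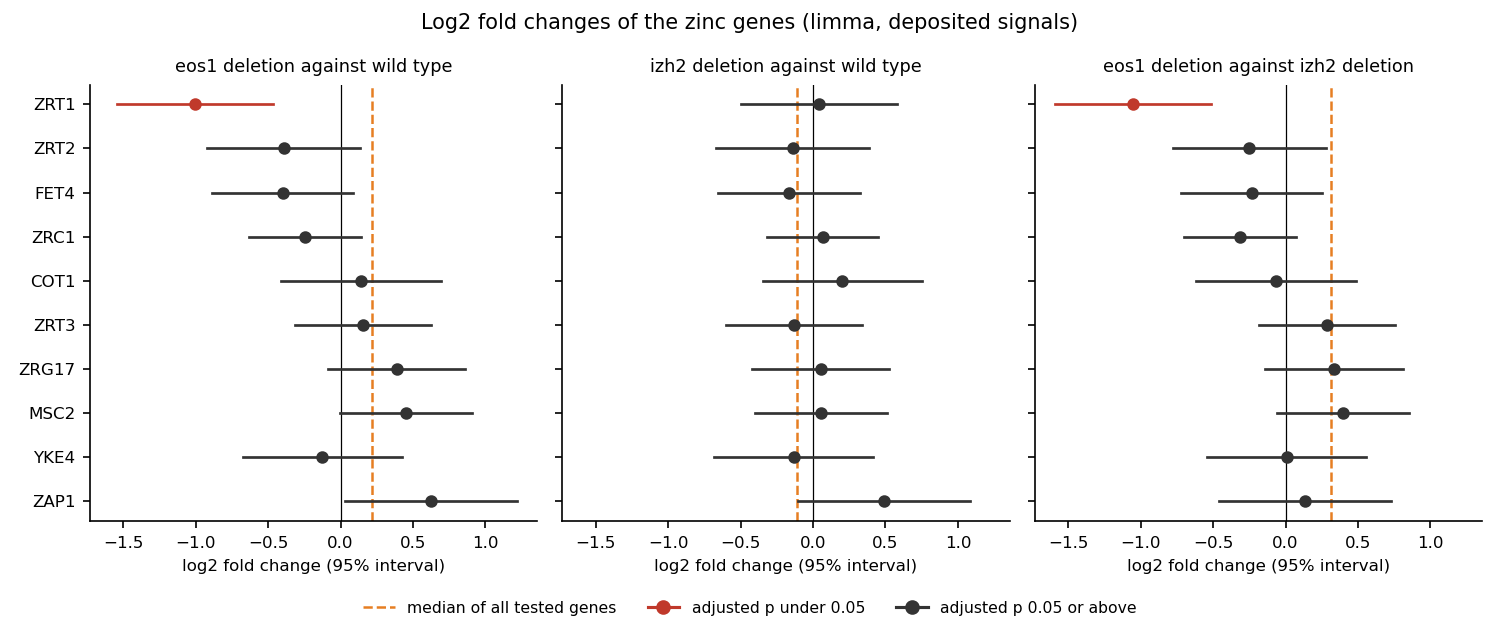
Log2 fold changes of the 10 genes (x axis, points, with 95% intervals from limma as lines) in the 3 comparisons, fitted on the deposited signals. Red marks an adjusted p under 0.05 and the dashed line the median of all tested genes, at 0.21, -0.11 and 0.31. ZRT1 is the red gene in both comparisons of the eos1 deletion, at -1.01 and -1.05, and sits at 0.04 in the izh2 deletion.

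Taken as a set, the 10 genes had a median log2 fold change of 0.0069 in the eos1 deletion, against 0.21 for all tested genes, with a range from -1.01 (ZRT1) to 0.62 (ZAP1). Of the 10 genes 7 lay below the median of all genes, and 3, namely ZAP1, MSC2 and ZRG17, lay above it. The 3 uptake genes had the lowest log2 fold changes of the set.

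The second question was whether loss of IZH2 altered the same genes. It gave no call among them. Over all 4915 genes IZH2 itself was the 1 gene past an adjusted p under 0.05 (0.0203%), and at an unadjusted p under 0.05 there were 8 higher (0.163%) and 96 lower (1.95%), none of them a zinc gene. ZRT1 had signals of 1097 and 1158 in the izh2 deletion, between the wild-type values of 1301 and 919.6. Its log2 fold change of 0.04 had a 95% interval from -0.50 to 0.58, which spans 0.709 to 1.498 times the wild-type level. ZRT2 and FET4 had log2 fold changes of -0.14 and -0.17. ZRT2 signals of 1395 and 1229 in the izh2 deletion overlapped those of the wild type, and FET4 signals of 1847 and 1801 lay just below them. Lower signals without overlap, which FET4 and ZRT3 showed, were seen in 22.9% of all tested genes. After median centring the arrays of FET4 and ZRT3 overlapped those of the wild type.

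Among the vacuolar genes, ZRC1 had signals of 4246 and 4033 in the izh2 deletion, above the wild-type arrays by a narrow margin, and a log2 fold change of 0.07 (95% interval -0.32 to 0.45). COT1 varied most between the arrays of this strain, with signals of 1110 and 1621, a 1.46-fold difference that takes in both wild-type values. ZRT3 had signals of 2383 and 2128, just below the wild type, and a log2 fold change of -0.13. ZRG17 (446 and 451), MSC2 (444 and 423) and YKE4 (903 and 1099) overlapped the wild type, at log2 fold changes of 0.05, 0.06 and -0.13.

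ZAP1 had the largest log2 fold change of the set in the izh2 deletion too. Its signals of 132 and 139 in the izh2 deletion lay above the 85.8 and 109 of the wild type, a log2 fold change of 0.49 (95% interval -0.11 to 1.08). This difference did not pass (limma, unadjusted p = 0.098, adjusted p = 0.998), although it was the 50th highest among 4915 genes. On median-centred values it was 0.60 ± 0.26 (SE; limma, unadjusted p = 0.046, adjusted p = 0.999), where 0.712% of all tested genes were higher at an unadjusted p under 0.05. Non-overlapping higher signals were seen in 5.19% of all tested genes, and in 2 of the 10 zinc genes, ZRC1 and ZAP1. The median log2 fold change of the set was 0.05, against -0.11 for all genes.

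**Figure D3:**
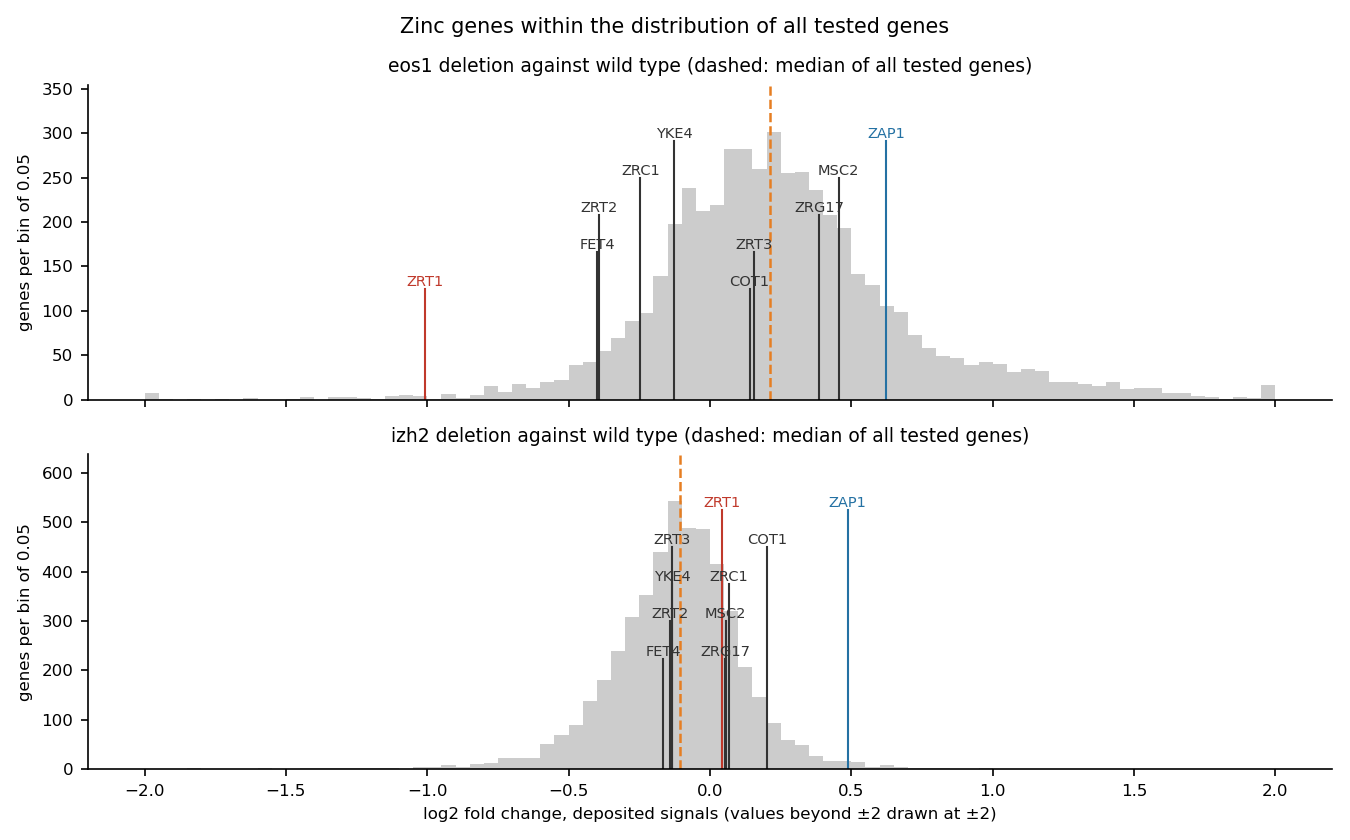
Histograms of the log2 fold changes of all 4915 tested genes (y axis, genes per bin of 0.05) against the wild type, for the eos1 deletion (top) and the izh2 deletion (bottom), with the 10 zinc genes marked as lines of arbitrary height. The dashed line is the median of all genes. ZRT1 lies in the low tail for the eos1 deletion, at -1.01, and near the centre for the izh2 deletion, at 0.04, and ZAP1 lies to the right in both, at 0.62 and 0.49.

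Both comparisons above share the wild-type arrays, so the deletions were also compared directly, without them in the contrast. The direct contrast uses the same deletion arrays and equals the difference between those comparisons, so it is not an independent result. The wild-type arrays still enter its estimate of the spread. Here 12.7% of all tested genes passed, 0.712% as falls, and of the 10 zinc genes 1 passed, again ZRT1. ZRT1 signals of 572 and 517 in the eos1 deletion stood against 1097 and 1158 in the izh2 deletion, 2 pairs of close replicates. The fall was 2.07-fold, a log2 fold change of -1.05 (95% interval -1.59 to -0.51; limma, adjusted p = 0.017), the 25th lowest of all genes. After median centring the log2 fold change was -1.40 ± 0.19 (SE; limma, adjusted p = 0.0044). On the deposited signals the call was lost on leaving out any array of the deletions compared: the first or second eos1 deletion array (adjusted p = 0.058 and 0.055) or the first or second izh2 deletion array (adjusted p = 0.089 and 0.146). It held without either wild-type array and without the chromosome II genes (adjusted p = 0.033). After median centring it held on leaving out each of the 6 arrays in turn, with adjusted p from 0.00079 to 0.045.

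ZRC1 passed in this comparison too, but only after the arrays were rescaled. Its signals were 3529 and 3143 on eos1 deletion arrays and 4246 and 4033 on izh2 deletion arrays, with no overlap, as for ZRT1, FET4 and 6.45% of all tested genes. The log2 fold change was -0.31 on deposited signals (95% interval -0.70 to 0.07; limma, adjusted p = 0.25), and -0.66 ± 0.15 after median centring (SE; limma, adjusted p = 0.024). On centred values 10.6% of all tested genes passed and 3.93% as falls, and leaving out single arrays gave ZRC1 adjusted p from 0.015 to 0.174, with the call lost on omission of any eos1 or izh2 deletion array. Without the chromosome II genes its centred adjusted p was 0.052. FET4 and ZRT2 had centred log2 fold changes of -0.58 and -0.60 at adjusted p of 0.0503 and 0.053 (limma). Both passed in that comparison when a wild-type array was left out of the shared estimate of the spread, and neither passed on the deposited signals.

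The remaining genes gave no call between the deletions on either scale. ZRT3, ZRG17 and MSC2 were higher in the eos1 deletion without overlap, as were 54.7% of all genes, with log2 fold changes of 0.29, 0.33 and 0.40 where the median of all genes was 0.31. COT1 and YKE4 overlapped, at -0.06 and 0.0079. ZAP1 had signals of 149.9 and 148 on eos1 deletion arrays and 132 and 139 on izh2 deletion arrays, a log2 fold change of 0.14 that became -0.21 after median centring, so that the order of the deletions for ZAP1 turned with the scaling. Against the wild type ZAP1 kept a positive sign in both deletions under quantile normalization too, but its log2 fold change was then 0.09 in the eos1 deletion (limma, adjusted p = 0.90), against 0.62 on the deposited signals, and 0.55 in the izh2 deletion.

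**Figure D4:**
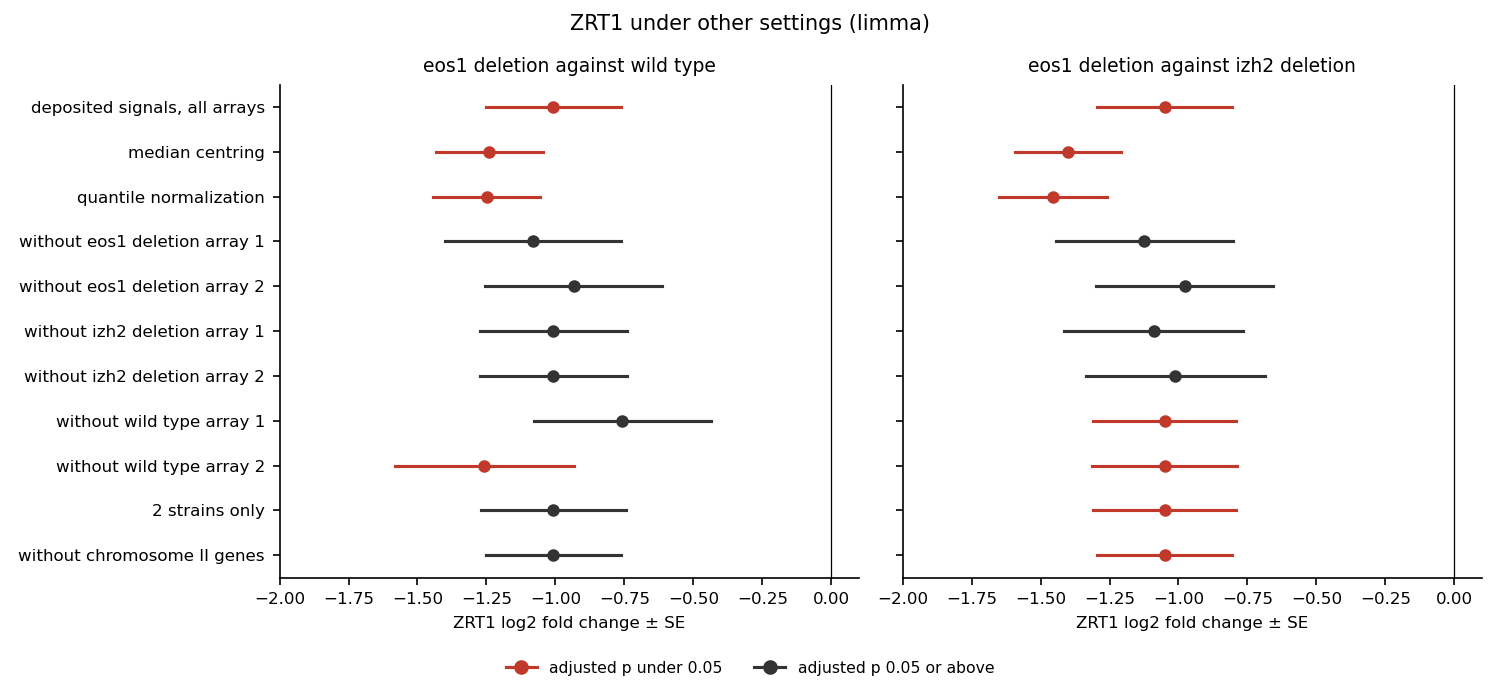
Log2 fold change of ZRT1 (x axis, point ± SE from limma) in the eos1 deletion against the wild type (left) and against the izh2 deletion (right), with the deposited signals on top and other settings below. Red marks an adjusted p under 0.05. Every value lies below 0, between -1.26 and -0.76 on the left when single arrays were left out of the deposited signals, and the call comes and goes with the arrays used.

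Ratios between genes on 1 array do not depend on a factor applied to the whole array, and were formed after the values were seen. Relative to the wild-type mean, the log2 ratio of ZRT1 to ZAP1 was -1.57 and -1.69 on the eos1 deletion arrays, -0.45 and -0.44 on the izh2 deletion arrays, and 0.42 and -0.42 on the wild-type arrays. ZRT1 and ZAP1 had the lowest and highest log2 fold changes of the set in the eos1 deletion, so that strain stood apart by choice of pair. The izh2 deletion arrays lay just outside the wild-type spread. The ratio of ZRT1 to ZRT2 was -0.71 and -0.52 on eos1 deletion arrays, 0.05 and 0.31 on izh2 deletion arrays, and 0.15 and -0.15 in the wild type, on the same log2 scale. The ratio of ZRT1 to FET4 was -0.63 and -0.58 on eos1 deletion arrays, 0.15 and 0.27 on izh2 deletion arrays, and 0.14 and -0.14 in the wild type. ZRT1 was thus lowered by more than the other uptake genes on both eos1 deletion arrays. ZRT1 to ZRC1 gave -0.77 and -0.75 on eos1 deletion arrays and -0.10 and 0.05 on izh2 deletion arrays. Wild-type arrays gave 0.28 and -0.28. ZRC1 to COT1 gave -0.29 and -0.48 on eos1 deletion arrays and 0.17 and -0.45 on izh2 deletion arrays. Wild-type arrays gave 0.0074 and -0.0074. The partners ZRG17 and MSC2 kept their ratio to each other within the wild-type spread on all deletion arrays, with log2 values of -0.15 and 0.0087 on eos1 deletion arrays, -0.05 and 0.04 on izh2 deletion arrays, and -0.20 and 0.20 in the wild type.

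The order of the strains on the deposited signals differed by gene. Without overlap, 41.9% of all tested genes were higher and 8.83% lower in the eos1 deletion than in the wild type. In the izh2 deletion against the wild type these shares were 5.19% and 22.9%. In the eos1 deletion against the izh2 deletion they were 54.7% and 6.45%. For ZRT1 the eos1 deletion was lowest, and the izh2 deletion and the wild type overlapped. For ZRT2 the eos1 deletion lay below the wild type, and the izh2 deletion overlapped both. For FET4 the eos1 deletion was lowest, the izh2 deletion intermediate and the wild type highest, with no overlap between neighbours. For ZAP1 that order was reversed, again with no overlap between neighbours. After median centring the izh2 deletion overlapped the wild type for FET4. The centred ZAP1 signals were highest in the izh2 deletion, intermediate in the eos1 deletion and lowest in the wild type, without overlap. For ZRC1 the eos1 deletion was lowest and the izh2 deletion highest, each apart from the wild type. For COT1 the eos1 deletion lay above the wild type, as it did for 41.9% of all tested genes, and the izh2 deletion overlapped both. For ZRT3 the eos1 deletion and the wild type overlapped, with the izh2 deletion below. After centring the izh2 deletion overlapped both for ZRT3, and all strains overlapped for COT1. For ZRG17 and MSC2 the eos1 deletion was highest, and the other strains overlapped. For YKE4 all strains overlapped.

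Over the 6 arrays, median-centred log2 signals of ZRT1 followed those of FET4 (r = 0.98), ZRT2 (r = 0.96) and ZRC1 (r = 0.92), and not those of ZAP1 (r = -0.11). These are descriptions over 3 strains, in which 1 strain apart from the others is enough to give a high r, and 134 of the 4914 other tested genes correlated with ZRT1 above 0.95. The closest were SEC53 (r = 0.999), RCM1 (r = 0.995) and EBP2 (r = 0.993). SEC53 had deposited signals of 10943 and 9388 on eos1 deletion arrays, 10598 and 10390 on izh2 deletion arrays, and 12162 and 10150 in the wild type. The strains thus overlapped for SEC53 before centring. RCM1 had signals of 755 and 625 on eos1 deletion arrays, 836 and 864 on izh2 deletion arrays, and 941 and 768 in the wild type, a smaller range than that of ZRT1. The genes closest to ZAP1 were SLY1 (r = 0.979), GIC2 (r = 0.969) and GYP6 (r = 0.967), and 9 genes correlated with it above 0.95.

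Other genes of the zinc response were counted from a list of 25 Zap1 targets that are not in the set, of which 21 were tested. In the eos1 deletion 2 rose and 1 fell against the wild type, where 6.43% of all tested genes rose and 0.712% fell. GRE2, a methylglyoxal reductase, had a log2 fold change of 1.40 ± 0.25 (SE; limma, adjusted p = 0.0081). NRG2, a transcriptional repressor encoded on chromosome II, had 1.01 ± 0.22 (limma, adjusted p = 0.021), and ADE17, an enzyme of purine synthesis, had -1.41 ± 0.31 (limma, adjusted p = 0.022). The median of the 21 genes was 0.09, against 0.21 for all genes. After median centring GRE2 rose and ADE17 and IZH4, a relative of IZH2, fell, while NRG2 did not pass. On that scale 4.25% of all tested genes rose and 2.24% fell, and IZH4 had an adjusted p of 0.031 (limma). On the deposited signals IZH4 had a log2 fold change of -1.02 and did not pass (limma, adjusted p = 0.109). In the izh2 deletion the 1 member of that list to pass was the deleted gene itself. Between the deletions 4 were higher in the eos1 deletion, namely CTT1, GRE2, NRG2 and IZH2 itself, and ADE17 was lower. Over all tested genes 12.0% were higher and 0.712% lower. CTT1, on chromosome VII, had a log2 fold change of 1.84 (limma, adjusted p = 0.013). After centring CTT1, GRE2 and IZH2 were higher and ADE17, IZH1 and IZH4 lower, as were 6.65% and 3.93% of all tested genes.

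Transporters of other metals gave a comparison outside the zinc response. Of 21 listed and tested, 2 rose in the eos1 deletion against the wild type and 0 fell, and both, the iron transporter gene FTH1 and the cadmium exporter gene PCA1, lie on chromosome II. Their log2 fold changes were 1.03 and 0.91 (limma, adjusted p = 0.021 and 0.028), and after median centring FTH1 passed (0.045) and PCA1 did not (0.072). The share that rose is near the 6.43% of all tested genes. The median of this list was 0.21, the same to 2 decimals as that of all tested genes. In the izh2 deletion 0 of the 21 passed (limma), beside the 1 gene that passed among all tested. Between the deletions FTH1, PCA1 and PMC1 were higher in the eos1 deletion and 0 were lower, beside 12.0% and 0.712% of all tested genes. PMC1, on chromosome VII, had a log2 fold change of 1.42 (limma, adjusted p = 0.0045). After centring PCA1 and PMC1 were higher and FTR1 and PHO84 lower, beside 6.65% and 3.93% of all tested genes.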

How the data were processed

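Labelled RNA of each culture was hybridised to 1 Affymetrix Yeast Genome 2.0 array, and for every probe set the authors deposited a signal intensity, on a linear scale. Per the series' design text the authors analysed the data with GeneSpring 7.3.1. For probe summary and scaling between arrays no method is given in the sources used here. Of 10928 probe sets 5498 named 1 yeast gene, through the platform annotation with symbols updated from RefSeq, giving 5449 genes. The probe set with the highest mean stood for a gene with several. The number of arrays limits the precision. 

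Intensities were floored at 1, taken to log2 and kept without further scaling. Genes with a mean log2 above 6.50, the 95th percentile of probe sets naming no yeast gene, were tested (4915). Those probe sets included 166 control probe sets, without which the limit was 4.02 and 5289 genes were tested. All 6 arrays entered 1 limma fit (limma 3.58.1, R 4.3.3, intensity trend, 3 residual degrees of freedom) with 3 contrasts, Benjamini-Hochberg adjustment over all tested genes and a threshold of 0.05. The fit was run on simulated data as a check of the code only. The simulated noise was independent and held no shift of an array or chromosome, so the run gives no rate of false calls for these data. Array background was the 95th percentile of probe sets naming genes of another organism. Median centring used all tested genes.

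The named genes were the 10 zinc genes, EOS1 and IZH2, the 3 genes most correlated with ZRT1 and with ZAP1, and members of 2 further lists past the threshold. The genes, lists and tests were chosen with earlier results of these data known. IZH4, and SEC53 and RCM1 as the examples of correlated genes, were singled out after their values were seen. Of the 25 further Zap1 targets 24 had a probe set. Alternatives covered scaling, filter, floor, trend, strains in the fit, chromosome II, replicate number and each array left out.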

Additional observations from a re-analysis of the deposited data

Results flagged for a closer look

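ZRT1 differed between the deletion strains. Against the same wild-type arrays its log2 fold change was -1.01 for the eos1 deletion and 0.04 for the izh2 deletion. The difference between the deletions, tested directly, was -1.05 on the log2 scale (limma, adjusted p = 0.017), with both eos1 deletion arrays (572 and 517) below both izh2 deletion arrays (1097 and 1158). In this contrast 12.7% of all tested genes passed, 0.712% as falls. On the deposited signals the ZRT1 call was lost on leaving out any 1 array of either deletion. With 2 arrays per strain, single arrays were left out in turn but not examined as outliers.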

How the results depend on the processing

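With 2 arrays per strain, a gene's spread rests on 3 residual degrees of freedom and on what limma borrows from other genes, and where 1 array was left out the lone array was assumed to vary like the other strains. The scaling of the deposited signals stays unknown, so small signed values have no settled direction. ZAP1, the dimmest of the set, was not tested under the stricter filter. Another filter, a floor of 16, no intensity trend and the mean over probe sets changed no call among the 10 genes and no count by over 1.5 times.

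The calls of ZRT1 in both eos1 comparisons held under median centring, quantile normalization and the replicate block. With the wild type and the eos1 deletion alone in the fit, 226 genes and 0 of the 10 zinc genes passed in the eos1 deletion against the wild type (ZRT1, limma, adjusted p = 0.067). Without chromosome II genes it was 59 and 0, and 251 genes passed between the deletions. Those genes had held 209 of the 351 and 272 of the 623 calls. Centring without those genes gave 82 and 210. After median centring, 319 genes passed in the eos1 deletion against the wild type, 209 higher and 110 lower, where the deposited signals gave 316 higher and 35 lower. Between the deletions these counts were 327 higher and 193 lower after centring, against 588 higher and 35 lower. Between the deletions 2 zinc genes, ZRT1 and ZRC1, passed under median centring, quantile normalization and the block with centring.

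The median log2 fold change of the set in the eos1 deletion against the wild type was -0.23 under median centring, with or without the block, COT1 was -0.093 and ZRT3 -0.078. COT1 was -0.048 and ZRT3 -0.017 under quantile normalization, and -0.034 and -0.019 under centring without chromosome II genes. In the izh2 deletion against the wild type, quantile normalization turned ZRT3 to 0.030 and YKE4 to 0.040. In the eos1 deletion against the izh2 deletion, median centring, with or without the block, gave a median of -0.38, ZRT3 -0.061, ZRG17 -0.016, YKE4 -0.34 and ZAP1 -0.21. Quantile normalization gave -0.44, -0.048, -0.059, -0.37 and -0.47 in that order. Centring without chromosome II genes gave a median of -0.33, ZRT3 -0.011, YKE4 -0.29 and ZAP1 -0.16. None of these values of single genes passed the test. The cause of the turned signs beyond the shift of scale was not tested.

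Leaving out each array in turn gave 160 to 415 genes in the eos1 deletion against the wild type, 1 to 25 in the izh2 deletion against the wild type (25 without the second wild-type array) and 82 to 879 between the deletions. The fewest came without the first eos1 deletion array and, between the deletions, without the second izh2 deletion array. Of the zinc genes 0 to 1 passed against the wild type and 0 to 4 between the deletions, the 4 being ZRT1, ZRT2, FET4 and ZRC1 after centring without a wild-type array. Medians of the set ran from -0.14 to 0.078 in the eos1 deletion against the wild type, from -0.11 to 0.048 in the izh2 deletion against the wild type, and from -0.15 to 0.16 between the deletions. Signs turned within these ranges of log2 fold change. In the eos1 deletion against the wild type, ZRT3 ran from -0.015 to 0.32 and YKE4 from -0.30 to 0.051. In the izh2 deletion, ZRT1 ran from -0.21 to 0.29, COT1 from -0.070 to 0.48, ZRG17 from -0.049 to 0.15, MSC2 from -0.041 to 0.15 and YKE4 from -0.31 to 0.043. Between the deletions, COT1 ran from -0.34 to 0.21 and YKE4 from -0.14 to 0.15.

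The replicate numbers are shared by the strains but do not pair the arrays by any label. Differences between replicates correlated across genes at 0.48 for the eos1 deletion and the wild type, -0.34 for the izh2 deletion and the wild type, and 0.09 for the deletions. With the number as a replicate block, 428 genes passed in the eos1 deletion against the wild type, 1 in the izh2 deletion and 740 between the deletions, with ZRT1 at adjusted p of 0.028 and 0.015 (limma). With the izh2 deletion's numbers exchanged, an alternative chosen after seeing the data as were those that centre before leaving out an array or chromosome II, the counts were 637, 2 and 1006.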
